A study of Mus musculus with 12 samples.

Results

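The 10 genes described here encode the inducible cytosolic HSP70 proteins (Hspa1a and Hspa1b), the constitutive HSP70 (Hspa8), the HSP70 of the endoplasmic reticulum (Hspa5, also called BiP), an HSP110 (Hsph1), the HSP90 pair (Hsp90aa1 and Hsp90ab1), the mitochondrial HSP60 (Hspd1), an HSP40 cochaperone (Dnajb1) and the heat shock transcription factor Hsf1. They were matched by symbol among the 53715 genes of a deposited count table, and all 10 are among the 19815 genes that passed the filter on low counts. The genes were selected on earlier results of these data, among them their values in Tet1KO and WT at 11 months, so values from any comparison that uses the 11-month libraries are given as a description, without a test. Tet1KO against WT at 3 months shares no library with that comparison, and it is the one tested here, although the fit shares its estimate of the spread over all 12 libraries. Earlier results of the 3-month libraries may also have been known when the genes were selected.

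Heat shock proteins are chaperones that bind unfolded or newly made proteins and help them fold. HSP70 proteins work in cycles driven by ATP, in which J-domain cochaperones such as DNAJB1 deliver the substrate and start hydrolysis and HSP110 proteins such as HSPH1 exchange the nucleotide, while HSP90 proteins act on partly folded kinases and receptors. The factor HSF1 binds heat shock elements, inverted repeats of a GAA unit in promoters, and induces Hspa1a and Hspa1b after heat or other stress, whereas Hspa8, Hsp90ab1 and Hspa5 are expressed in most unstressed cells. Germ cells of the testis develop below core body temperature and also use HSP70 relatives of their own, such as Hspa2 in spermatocytes.

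Each of the 12 libraries was made from 1000 spermatogonia, the mitotic germ cells of the seminiferous tubule, isolated by FACS from testes of C57BL6/129 mice and amplified with Smart-seq2. The 4 groups of 3 libraries were labelled WT at 3 months, Tet1KO at 3 months, WT at 11 months and Tet1KO at 11 months, Tet1 being the gene of an enzyme that oxidises methylated cytosine in DNA. The labels do not describe the knockout allele, name no treatment, and do not tie libraries to animals. The p-values therefore reflect the variation among 3 libraries of a group, which may be technical.

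Total counts ran from 8325159 to 18223645 per library, and a count of 0 allows up to 3 counts, or 0.162 to 0.402 CPM (normalised counts, with libraries scaled by TMM) at these depths, for counting error only. Tet1 lay between 0 and 1.64 CPM in the 6 WT libraries and between 0.062 and 1.73 CPM in the 6 Tet1KO libraries. Its whole-gene count therefore did not separate the genotypes and checks no label. The 8 spermatogonial markers summed to 2543 to 3194 CPM, most of it from Dazl (1651 to 2503 CPM), while the stem cell and progenitor markers Zbtb16 (1.83 to 13.7 CPM) and Gfra1 (13.95 to 40.6 CPM) varied more. By contrast, 8 spermatocyte and spermatid markers summed to 381 to 4272 CPM, 12 leukocyte and macrophage markers to 54.0 to 648 CPM, 7 peritubular myoid markers to 23.2 to 375 CPM and 9 Sertoli cell markers to 7.13 to 173 CPM, and no marker was at 0 in all 12 libraries. WT replicate 1 and Tet1KO replicate 2 of 3 months stood apart on the first principal component (39.0% of the variance). In bulk libraries, fewer cells of a type and less RNA per cell cannot be told apart.

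Hspa1a and Hspa1b are near-identical copies, and their sequences are shown because they bear on how the counts can be read. Both lie on the minus strand of chromosome 17 in mm10, Hspa1a at chr17:34969190-34972156 and Hspa1b at chr17:34956436-34959238, each as a single exon. Their coding sequences of 1923 and 1926 bases differ at 8 positions and by a gap of 3 bases, which is 99.4% identity, with an identical stretch of 638 bases. The encoded proteins differ by 1 gap position and by no substitution. The 3′ UTRs of 813 and 646 bases are only 42.7% identical. Reads from the 3′ UTR can therefore be placed on 1 copy, while many reads from the coding sequence match both. The 250 bases upstream of each start site, from the RefSeq promoter table on GRCm38.p6 (the assembly of mm10), are at chr17:34972157-34972406 and chr17:34959239-34959488, minus strand. They are printed here 5′ to 3′ with the heat shock element in capitals.
Hspa1a: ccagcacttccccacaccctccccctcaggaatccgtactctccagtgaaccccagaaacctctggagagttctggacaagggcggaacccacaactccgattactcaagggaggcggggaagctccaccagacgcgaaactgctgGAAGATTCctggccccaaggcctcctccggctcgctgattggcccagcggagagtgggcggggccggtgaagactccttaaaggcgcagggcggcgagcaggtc
Hspa1b: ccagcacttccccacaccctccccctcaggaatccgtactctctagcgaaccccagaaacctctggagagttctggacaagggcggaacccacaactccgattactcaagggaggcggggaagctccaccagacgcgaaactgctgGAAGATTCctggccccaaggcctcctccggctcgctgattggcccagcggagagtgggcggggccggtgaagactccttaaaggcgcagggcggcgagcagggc
These windows are 98.8% identical and differ at 3 positions, which are 207, 204 and 2 bases before the start. The element GAAGATTC, 104 to 97 bases before the start, is the same in both.

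The search covered both strands for a pair of facing units (GAANNTTC or TTCNNGAA) and for 3 alternating units (GAANNTTCNNGAA or TTCNNGAANNTTC), where a match to the longer form also holds matches to the shorter. For 6 of the 10 genes a promoter was found in the table, and Hspa8, Hsp90aa1, Hsp90ab1 and Hsf1 had none. A pair of units occurred in 12.8% of all 32851 promoter windows of the same length and the 3-unit form in 0.466%. Beside the HSP70 copies, Hsph1 held the pair TTCTCGAA upstream of both of its start sites, 33 to 26 and 54 to 47 bases before them. The windows of these start sites overlap (chr5:149636337-149636586 and chr5:149636316-149636565), and both matches are the same bases of the genome. Of the 2 Hspd1 start sites, 1 held the 3-unit matches TTCCGGAAGGTTC and GAAGGTTCTAGAA, which overlap between 144 and 127 bases upstream, and the other held none. No match was found in either window of Dnajb1. Hspa5 held none either, but held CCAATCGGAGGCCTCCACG, 65 to 47 bases upstream. This matches the endoplasmic reticulum stress element (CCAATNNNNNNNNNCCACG), which was present in 0.113% of all windows. These matches describe letters in the windows and say nothing of binding.

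The libraries held large amounts of transcript of the HSP90 genes, Hspa8 and Hspa5, and little of the inducible HSP70 transcripts. Per length, as RPKM (CPM per kilobase of exon) averaged over the 12 libraries, Hsp90aa1 was highest at 435 ± 28.4 (SD), followed by Hsp90ab1 at 238 ± 35.8, Hspa8 at 167 ± 29.0 and Hspa5 at 129 ± 25.2. Hspd1 reached 61.0 ± 5.74 RPKM, Dnajb1 32.2 ± 6.58 and Hsph1 9.18 ± 1.59. Hspa1a at 3.74 ± 3.21, Hsf1 at 3.31 ± 0.661 and Hspa1b at 2.16 ± 2.07 RPKM were lowest. The lengths include the sequence that the HSP70 copies share, where reads may fail the mapping quality minimum, so the levels of both copies may be understated. This order of levels held between neighbours in 11 or 12 of the 12 libraries, except that Hspa1a exceeded Hsf1 in only 4 of 12, so those 2 genes cannot be ordered per length. The length counts all annotated exon bases of a gene, 7099 for Hsf1 against 2967 for Hspa1a. Without it, Hsf1 averaged 23.5 CPM against 11.1 CPM for Hspa1a, so the place of Hsf1 depends on the length used.

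The 2 inducible copies were also the most variable of the 10, with a spread that was much larger with the 11-month Tet1KO libraries whose values helped to choose them. Over the 12 libraries, the coefficient of variation of the CPM was 85.7% for Hspa1a and 96.1% for Hspa1b, and their highest library was 7.75 and 8.55 times their lowest. Without Tet1KO replicate 3 of 11 months, the value of Hspa1b was 53.8% and its range 4.15-fold. Without replicates 2 and 3 of that group, both left out after seeing the data, Hspa1a had 40.9% and Hspa1b 27.9%, beside a median of 28.8% over all genes tested. They were then still the most variable of the 10 genes, followed by Hspa5 at 20.3%. In these 10 libraries Hspa1b had 26 to 95 counts and Hspa5 at least 4303, so counting error adds more to the spread of Hspa1b. The coefficients are not adjusted for level. With all 12 libraries, the other 8 genes had coefficients of variation from 6.53% (Hsp90aa1) to 20.5% (Dnajb1), and their highest library was 1.23 to 2.0 times the lowest. Over all 12 libraries the median of all genes tested was 30.3%, and over the 9561 tested genes with a mean of at least 10 CPM it was 17.8%. The plot of levels by group shows the contrast between the copies and the remaining members.

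**Figure D1:**
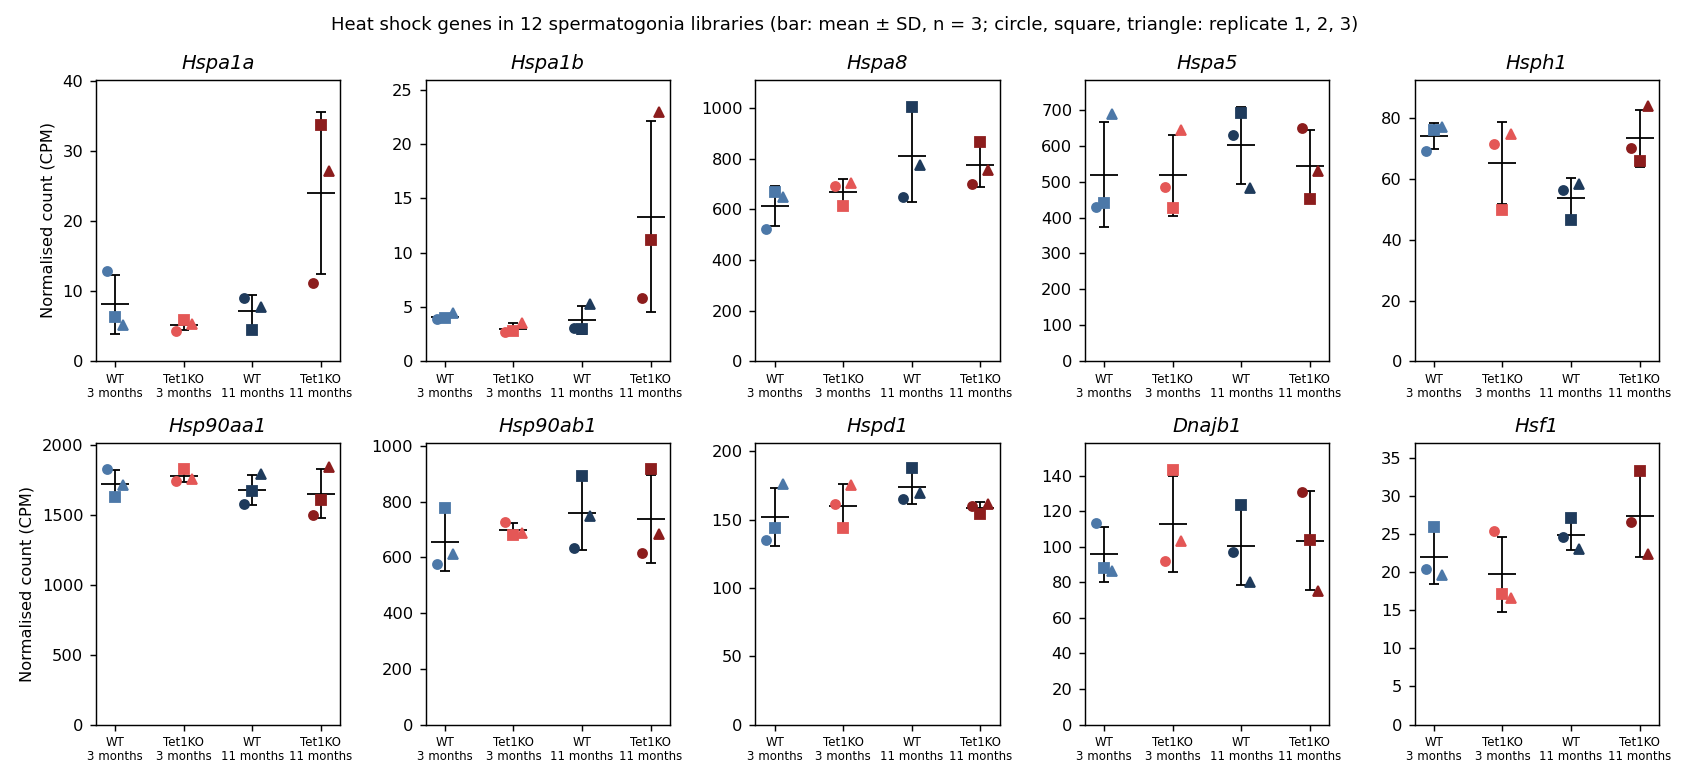
Normalised counts (CPM, linear axes from 0) of the 10 heat shock genes, 1 panel per gene, for WT and Tet1KO at 3 and 11 months; points are libraries (circle, square and triangle for replicates 1, 2 and 3) and black bars the mean ± SD (n = 3). Hspa1a and Hspa1b stood higher in Tet1KO at 11 months (11.1 to 33.7 and 5.85 to 23.0 CPM) than in the WT libraries of that age, while Hsp90aa1 stayed between 1504 and 1849 CPM in all libraries.

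Among the ATP-driven HSP70s, Hspa1a had 12.9, 6.26 and 5.10 CPM in WT against 4.34, 5.93 and 5.29 CPM in Tet1KO at 3 months. At 11 months the values were 9.08, 4.43 and 7.78 CPM in WT against 11.1, 33.7 and 27.2 CPM in Tet1KO, replicates 1 to 3 in each case. At 3 months the genotypes overlapped, with WT replicate 1 the highest library, and at 11 months each Tet1KO library lay above each WT library, replicate 1 only narrowly. The fitted log2 fold change of Tet1KO over WT at 11 months was 1.75 ± 0.46 (SE), a 3.37-fold difference. Group means at that age were 24.0 ± 11.6 CPM (SD, n = 3) in Tet1KO and 7.10 ± 2.40 CPM in WT.

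Hspa1b, the second inducible copy, had 3.86, 4.0 and 4.43 CPM in WT against 2.69, 2.75 and 3.56 CPM in Tet1KO at 3 months. At 11 months it had 3.09, 2.98 and 5.26 CPM in WT against 5.85, 11.1 and 23.0 CPM in Tet1KO. All Tet1KO libraries lay below all WT libraries at 3 months and above them at 11 months. The fitted log2 fold change at 11 months was 1.82 ± 0.45, or 3.54-fold. It was 1.17 without Tet1KO replicate 3, the library with the highest Hspa1b level, and between 1.68 and 2.18 without each of the other libraries of that age. For Hspa1a the corresponding fits at 11 months ran from 1.43 to 2.10.

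At 11 months same-numbered libraries varied together, which only hints at pairing, since the labels give none. The difference within each pair is therefore also given as a description. The log2 ratio of Tet1KO to WT in Hspa1a CPM was 0.30, 2.92 and 1.80 in pairs 1, 2 and 3, and in Hspa1b 0.92, 1.91 and 2.13. All were above 0, with pair 1 the smallest in both genes. With the replicate number as a block, the fitted values were 1.78 ± 0.51 for Hspa1a and 1.72 ± 0.36 for Hspa1b. In the plot of fits with a library left out, the 11-month values stay above 0 in every case. Every Tet1KO library lay above every WT library at that age, so the sign of these ratios and fits was fixed in advance. Only their size is described.

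**Figure D2:**
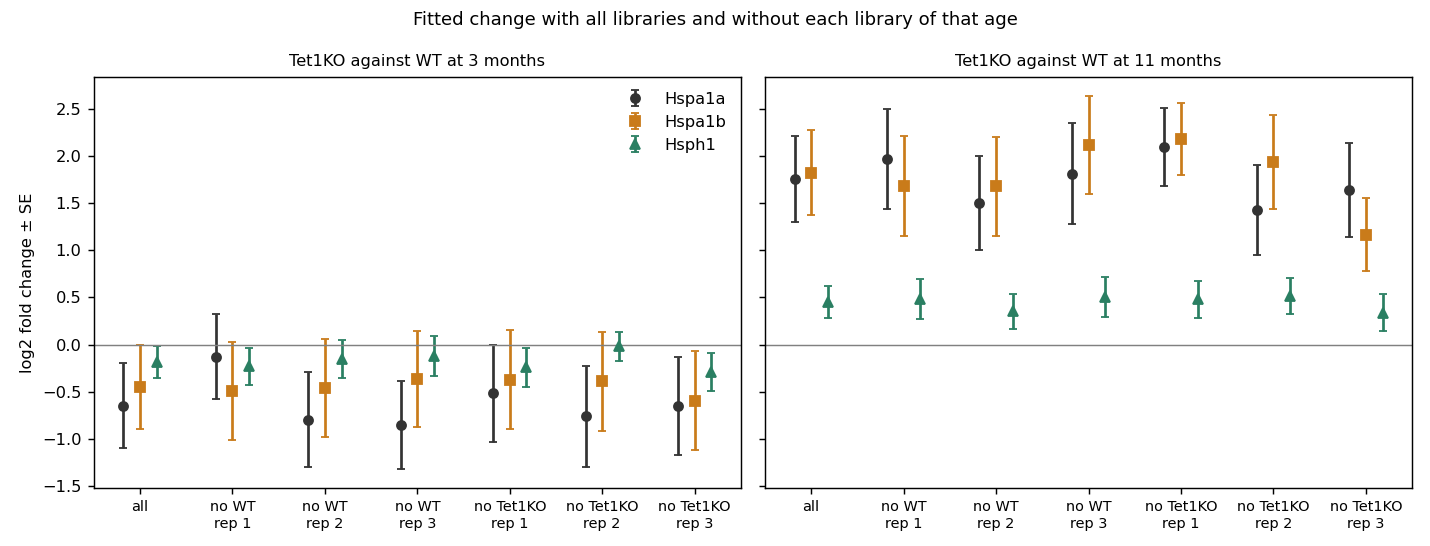
Fitted log2 fold change ± SE (edgeR) of Tet1KO against WT for Hspa1a, Hspa1b and Hsph1 with all libraries and without each library of that age, at 3 months (left) and 11 months (right). At 11 months Hspa1a ran from 1.43 to 2.10 and Hspa1b from 1.17 to 2.18; at 3 months Hspa1a moved from -0.65 to -0.13 without WT replicate 1.

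How the counts divide between the copies differed among libraries. Hspa1a held 53.5% of the summed counts of both copies in WT replicate 3 of 3 months (38 of 71, exact Clopper-Pearson 95% interval 41.3% to 65.5%) and 77.0% in WT replicate 1 of 3 months (171 of 222, 70.9% to 82.4%), the lowest and highest shares. In Tet1KO at 11 months it held 65.6%, 75.1% (335 of 446, 70.8% to 79.1%) and 54.2% (325 of 600, 50.1% to 58.2%) in replicates 1, 2 and 3. The last pair of intervals do not meet, so the split was not constant even within that group, although the intervals cover counting error only. The sum of both copies does not depend on how reads were assigned between them. It was 12.2, 7.41 and 13.05 CPM in WT against 16.996, 44.8 and 50.1 CPM in Tet1KO at 11 months, which do not overlap. The log2 fold change of the summed copies was 1.78 ± 0.39.

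Hspa1a also shares reads with another gene. Gm20481, on the opposite strand at chr17:34969912-34972136, covers 564 of its 2967 exon bases (19.01%), and because the authors counted without strand and counted a fragment for each gene it overlaps, reads of the pair cannot be told apart there. Gm20481 counts were 88, 53 and 38 in the 11-month WT libraries against 123, 192 and 188 in the Tet1KO ones, beside Hspa1a counts of 144, 76 and 71 and of 181, 335 and 325. Its highest counts fell in the libraries with the highest Hspa1a counts, as the bars of raw counts show. Hspa1b has no such partner in the table. The part of shared reads in the Hspa1a values was not tested. Hspe1, on the opposite strand, shares 112 bases (4.24%) of Hspd1, and 3 small nucleolar RNA genes lie within Hspa8 with at most 26 counts in a library.

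**Figure D3:**
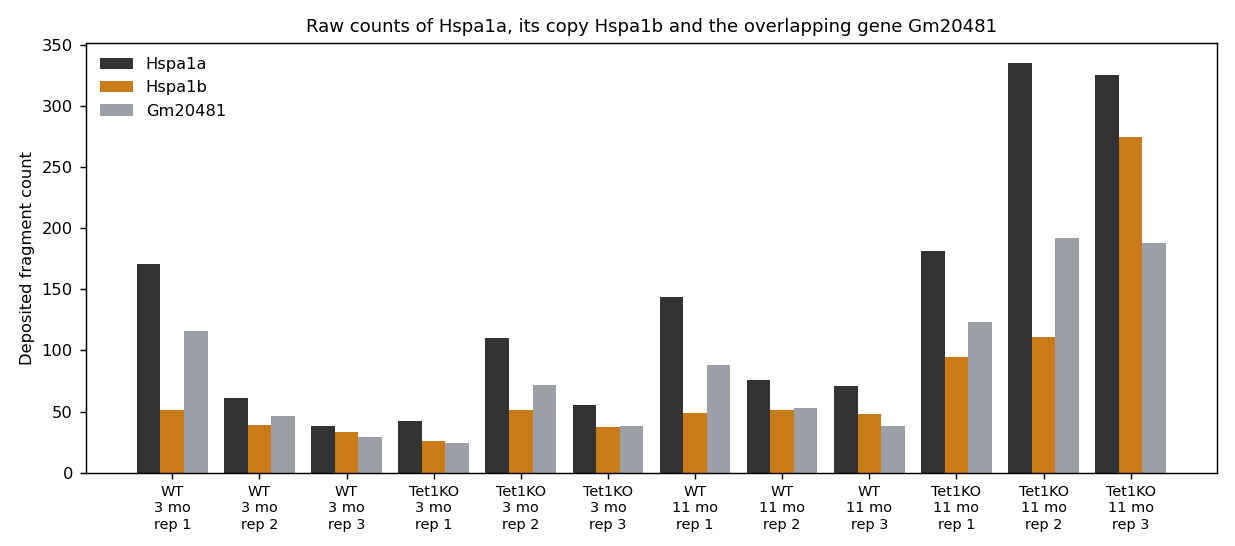
Raw deposited counts per library of Hspa1a, Hspa1b and Gm20481, the antisense neighbour that overlaps Hspa1a. The largest Hspa1a bars are Tet1KO replicates 2 and 3 of 11 months (335 and 325 counts); Hspa1b is largest in replicate 3 (275 counts), and totals per library differ, so heights compare genes within a library.

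Hspa8, the constitutive HSP70, had 524, 670 and 649 CPM in WT against 693, 611 and 705 CPM in Tet1KO at 3 months, and 650, 1005 and 773 CPM in WT against 700, 867 and 757 CPM in Tet1KO at 11 months. The genotypes overlapped at both ages. Its log2 fold change of 11 over 3 months was 0.40 ± 0.19 in WT and 0.21 ± 0.19 in Tet1KO.

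Hspa5, the chaperone that senses unfolded protein in the endoplasmic reticulum, spanned 428 to 687 CPM in WT against 426 to 644 CPM in Tet1KO at 3 months, and 482 to 692 CPM and 451 to 650 CPM at 11 months. Its genotype differences were close to 0, with a log2 fold change of -0.0022 ± 0.24 at 3 months and -0.15 ± 0.24 at 11 months. All 4 groups overlapped.

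Hsph1, the HSP110 that exchanges nucleotide on HSP70, had 69.1, 76.2 and 77.0 CPM in WT against 71.6, 49.9 and 74.7 CPM in Tet1KO at 3 months. At 11 months it had 56.5, 46.4 and 58.4 CPM in WT against 70.2, 66.0 and 84.0 CPM in Tet1KO. The genotypes overlapped at 3 months and did not at 11 months, where the log2 fold change was 0.45 ± 0.17. In WT, every library of 11 months lay below every library of 3 months (log2 fold change -0.46 ± 0.17), while in Tet1KO the ages overlapped (0.17 ± 0.17). The 11-month WT libraries were thus the low group, and the Tet1KO libraries of that age had a mean of 73.4 ± 9.40 CPM beside 74.1 ± 4.36 CPM in WT of 3 months.

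The HSP90 genes differed little between genotypes. Over all libraries, the highest value was 1.23 times the lowest for Hsp90aa1 and 1.59 times for Hsp90ab1. Hsp90aa1, the inducible form in many cell types, averaged 1726 ± 99.5 CPM in WT against 1781 ± 45.0 CPM in Tet1KO at 3 months, and 1682 ± 108 and 1654 ± 177 CPM at 11 months. Hsp90ab1, the constitutive form, averaged 656 ± 106, 699 ± 25.7, 758 ± 131 and 738 ± 159 CPM in the same order. Neither gene had a genotype difference beyond 0.10 on the log2 scale at either age, against SEs of 0.15 and 0.20.

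Hspd1, the mitochondrial chaperonin, had 165, 188 and 169 CPM in WT against 160, 154 and 162 CPM in Tet1KO at 11 months. These Tet1KO libraries all lay below the WT libraries, by a small margin (log2 fold change -0.13 ± 0.13). At 3 months its range was 135 to 176 CPM in WT against 144 to 175 CPM in Tet1KO, which overlap.

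Dnajb1, the J-domain partner of HSP70, ranged from 86.1 to 113 CPM in WT against from 92.1 to 143 CPM in Tet1KO at 3 months. At 11 months the ranges were 80.1 to 124 CPM and 75.2 to 131 CPM. Hsf1 had 20.3, 26.0 and 19.6 CPM in WT against 25.3, 17.1 and 16.6 CPM in Tet1KO at 3 months, and 24.6, 27.1 and 23.0 CPM in WT against 26.5, 33.2 and 22.4 CPM in Tet1KO at 11 months. The genotypes overlapped for both genes at both ages. The transcript of the heat shock factor differed by 0.14 ± 0.22 on the log2 scale between genotypes at 11 months, beside the 1.75 and 1.82 of the HSP70 copies. In Tet1KO its log2 fold change of 11 over 3 months was 0.48 ± 0.22, and 0.70 without Tet1KO replicate 1 of 3 months.

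For Tet1KO against WT at 3 months, the comparison that may be tested, no member passed the edgeR quasi-likelihood test at a Benjamini-Hochberg adjusted p under 0.05 (0 of 10), and 0% of all 19815 genes did. The adjusted p was 1.0 for each member, and none had an unadjusted p under 0.05, against 225 of all genes (1.14%). DESeq2 called 2 genes, neither of them a member, and limma-voom called 0. Hspa1a had a log2 fold change of -0.65 ± 0.45 and Hspa1b of -0.45 ± 0.45, and the other 8 members lay between -0.18 ± 0.17 (Hsph1) and 0.24 ± 0.24 (Dnajb1). The value of Hspa1a was -0.13 without WT replicate 1, one of the libraries that stood apart. With only libraries of the code prefix AK, which leaves out WT replicate 2 and Tet1KO replicate 1 of this age, it was -0.66 ± 0.57, and that of Hspa1b -0.37 ± 0.59. In a fit of the 3-month libraries alone, which shares no spread with 11 months, the values were -0.64 ± 0.40 and -0.45 ± 0.33, and the edgeR adjusted p was again 1.0 for both. All 3 Tet1KO libraries lay below all 3 WT libraries in 1 of 10 members, Hspa1b, beside 3.62% of all genes, and above them in 0 of 10, beside 3.32%. The members' median log2 fold change was 0.021, and that of all genes tested was -0.022.

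The remaining comparisons use 11-month libraries, whose values helped to choose the genes, so nothing is read from their counts. At 11 months, Tet1KO lay above WT without overlap in 3 of 10 members (Hspa1a, Hspa1b and Hsph1), where 2.82% of all genes did, and below in 1 (Hspd1), where 2.54% did. For 11 against 3 months in WT, 0 members lay above (5.42% of all genes) and 1 below (Hsph1, 6.12%). In Tet1KO, 2 lay above (Hspa1a and Hspa1b, 3.1%) and 0 below (3.09%). The edgeR test called 0% of all genes in each of these comparisons and in the interaction of genotype and age. This and the calls of the other methods below describe all genes and are no test of the members. The genes at an unadjusted p under 0.05 numbered 326 at 11 months, 1124 for age in WT, 462 for age in Tet1KO and 311 for the interaction. DESeq2 called 3, 0, 7 and 0 genes in these comparisons, and limma-voom 0 in each; no member was among the 3. Hspa1a, Hspa1b and Gm20481 are among the 7 genes of age in Tet1KO, which is no test of them, since values of those libraries helped to choose the members.

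Against 3 months, the 11-month Tet1KO libraries had log2 fold changes of 2.20 ± 0.47 for Hspa1a and 2.15 ± 0.46 for Hspa1b. Without Tet1KO replicate 3 of 11 months the Hspa1b value was 1.49. In WT the same contrast gave -0.20 ± 0.45 and -0.12 ± 0.45, and the Hspa1a value turned to 0.32 without WT replicate 1 of 3 months. The difference between the genotype effects at 11 and 3 months was 2.40 ± 0.64 for Hspa1a, 2.27 ± 0.63 for Hspa1b and 0.63 ± 0.24 for Hsph1. For the other 7 members it lay between -0.21 ± 0.19 (Hspd1) and 0.30 ± 0.31 (Hsf1). These contrasts share libraries with each other, and their values stand side by side in the plot of fitted changes.

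**Figure D4:**
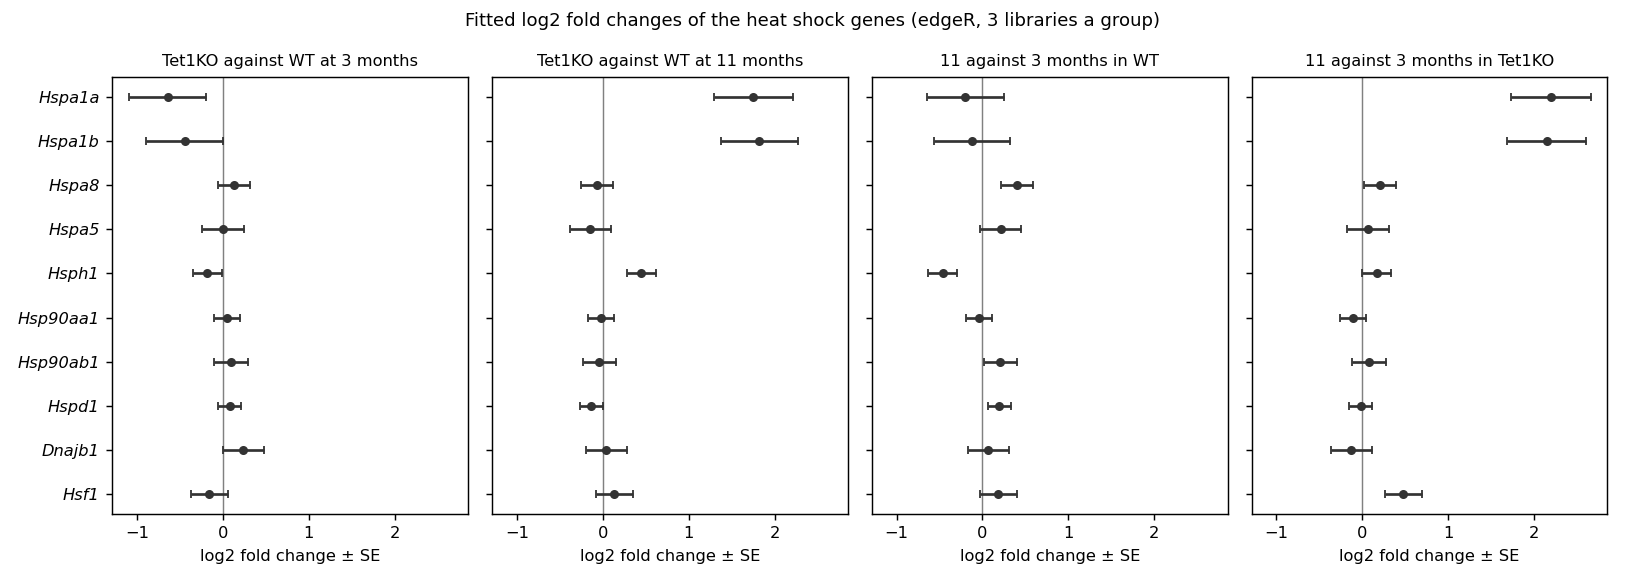
Fitted log2 fold changes ± SE (edgeR, 3 libraries per group) of the 10 heat shock genes in 4 comparisons, which share libraries. Hspa1a and Hspa1b stand at 1.75 and 1.82 for Tet1KO against WT at 11 months and at 2.20 and 2.15 for 11 against 3 months in Tet1KO, while the other 8 genes lie between -0.46 and 0.48 in all panels.

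Markers of other cells and stress signals were set beside the HSP70 copies. The 12 leukocyte and macrophage markers summed to 621, 54.0 and 452 CPM in WT against 317, 648 and 462 CPM in Tet1KO at 11 months, which overlap. Cd74 made up much of these sums, at 459, 29.7 and 288 CPM against 183, 420 and 204 CPM. Of the 12 markers, 3 had every Tet1KO library above every WT library, beside 2.82% of all genes tested. They were Ptprc, the common leukocyte antigen gene (5.30, 0.933 and 5.26 against 5.79, 15.3 and 7.77 CPM), Adgre1, the macrophage F4/80 gene (2.08, 0.700 and 2.96 against 3.26, 7.03 and 9.02 CPM), and Lyz2, the myeloid lysozyme gene (34.8, 0.700 and 22.9 against 39.8, 42.8 and 35.01 CPM). Ptprc and Adgre1 were, like the HSP70 copies, highest in Tet1KO replicates 2 and 3. So were Csf1r, Cd68, Tyrobp, Fcer1g and Laptm5, although their genotypes overlapped, whereas Lyz2, Cd74, C1qa, C1qb and C1qc were not. The 15 immediate early genes, which respond within minutes to stimulation and to cell dissociation, summed to 484, 311 and 376 CPM in WT against 306, 681 and 500 CPM in Tet1KO. Replicate 2 of Tet1KO was thus the highest of the 6, replicate 3 lay just above WT replicate 1, and replicate 1 was the lowest. Against WT replicate 1, Tet1KO replicate 3 was higher in Atf3 (94.4 against 44.3 CPM) and Egr1 (69.9 against 41.9 CPM). It was lower in others of the 15, such as Fos (83.2 against 97.7 CPM) and Dusp1 (47.5 against 104 CPM). The 7 peritubular myoid markers were lower in Tet1KO, with sums of 72.2 to 244 CPM in WT against 23.2 to 55.4 CPM in Tet1KO. Of these markers, 4 of 7 had every Tet1KO library below every WT library, beside 2.54% of all genes tested. Spermatocyte and spermatid markers spanned 381 to 2639 CPM in WT against 461 to 2478 CPM in Tet1KO. The part of these cells and signals in the HSP70 difference was not tested.

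By their pattern over the 12 libraries, the genes most like the summed HSP70 copies were Clec5a, a myeloid lectin receptor gene (Pearson r = 0.92 on log2(CPM + 1)), Gm26527 (0.86), Laptm5, a lysosomal membrane protein gene of blood cells (0.85), Atf3, a stress-induced transcription factor gene (0.85) and Slc29a3, a nucleoside transporter gene (0.85), among 17526 genes. Without Tet1KO replicates 2 and 3 of 11 months, the r over the remaining 10 libraries was 0.79, 0.61, 0.59, 0.58 and 0.69 in that order. Clec5a then ranked 13 and Slc29a3 84, and the other 3 ranked 279 to 398. All points share a library's depth and scaling. Atf3 had 44.3, 17.4 and 51.6 CPM in WT against 24.4, 80.0 and 94.4 CPM in Tet1KO at 11 months, which overlap. Clec5a had 0.568, 0 and 1.97 CPM in WT against 1.601, 3.82 and 4.595 CPM in Tet1KO, near the floor of 3 counts in several libraries.

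Among the members themselves, the HSP70 copies followed each other (r = 0.85 over 12 libraries), as did Hspa8 and Hsp90ab1 (0.83) and Hspa5 and Hspd1 (0.83). Both copies were highest in Tet1KO replicates 2 and 3 of 11 months, and the r between the copies without these libraries was not computed. Neither copy was closely followed by Hsf1, Hsph1 or Dnajb1. In that order, the r was 0.40, 0.30 and -0.17 for Hspa1a and 0.29, 0.49 and -0.44 for Hspa1b. With the summed copies, on the log2(CPM + 1) scale, the r of Hsf1, Hsph1 and Dnajb1 was 0.38, 0.38 and -0.27. These values describe 12 libraries that share depth, and no test is given.

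Other chaperone genes were described in lists of related function. At 3 months no gene of any list passed the edgeR test. Of all genes tested, 46.8% had a positive log2 fold change and the median was -0.022, while the list medians ran from -0.12 to 0.16. All 8 subunit genes of CCT, the cytosolic chaperonin that folds actin and tubulin, were positive (median log2 fold change 0.13), among them Cct8 at 0.22 ± 0.16, Cct5 at 0.16 ± 0.15 and Tcp1 at 0.06 ± 0.17. Of 13 HSP90 cochaperone genes 10 were positive (median 0.12), with Ptges3, which encodes p23, at -0.07 ± 0.20, Ahsa2 at 0.01 ± 0.15 and the ubiquitin ligase gene Stub1 at 0.42 ± 0.31. Of 9 mitochondrial chaperone and protease genes 8 were positive (median 0.15), and Hspe1, the HSP10 partner of Hspd1, was the exception at -0.35 ± 0.35.

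The 21 genes of endoplasmic reticulum chaperones and the unfolded protein response had 15 positive and 6 negative values at 3 months (median 0.045), with Creld2 at 0.25 ± 0.17, Hsp90b1, the HSP90 of this compartment, at -0.10 ± 0.20 and the lectin chaperone gene Calr at 0.16 ± 0.21. The 16 J-domain cochaperone genes divided evenly, 8 and 8 (median -0.0022), with Dnaja2 at 0.03 ± 0.15 and Dnaja1 at 0.07 ± 0.13. The 7 exchange factor genes had 5 positive values (median 0.16), and the most abundant, Bag1, stood at 0.16 ± 0.20. The 8 other HSP70 and HSP110 genes had 3 positive values (median -0.090), with Hspa4 at 0.06 ± 0.17. Among 4 tested heat shock factor genes and regulators, 3 were negative (median -0.12), with Hsf2 at -0.30 ± 0.15 and Hsbp1, which encodes a binding partner of HSF1, at -0.12 ± 0.24. The 6 tested small heat shock protein genes divided 3 and 3 (median 0.0071).

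At 11 months the same lists are given as a description. The CCT genes had 1 positive and 7 negative values (median -0.14), the endoplasmic reticulum list 9 and 12 (-0.12), and the mitochondrial list 2 and 7 (-0.039). Among HSP90 cochaperone genes 5 were positive and 8 negative (-0.020), and 12 of 16 J-domain genes were positive (0.17). The 15 immediate early genes were all positive (0.13 to 0.81, median 0.28), though none had Tet1KO libraries all above WT. The 3 highest in RPKM were Fos at 0.28 ± 0.28, Dusp1 at 0.13 ± 0.36 and Btg2 at 0.14 ± 0.24. Of all genes tested, 53.8% were positive, and their median was 0.024. At this age the median of the 10 members was 0.0089, since 5 were positive and 5 negative. The medians of the other 9 lists lay between -0.37 (small heat shock proteins) and 0.26 (heat shock factors). Single list genes ran from -1.32 (Hspb3, near the floor) to 0.87 (Dnajb13). The HSP70 copies, chosen with these values known, stood at 1.75 and 1.82. The plot of lists shows the values gene by gene.

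**Figure D5:**
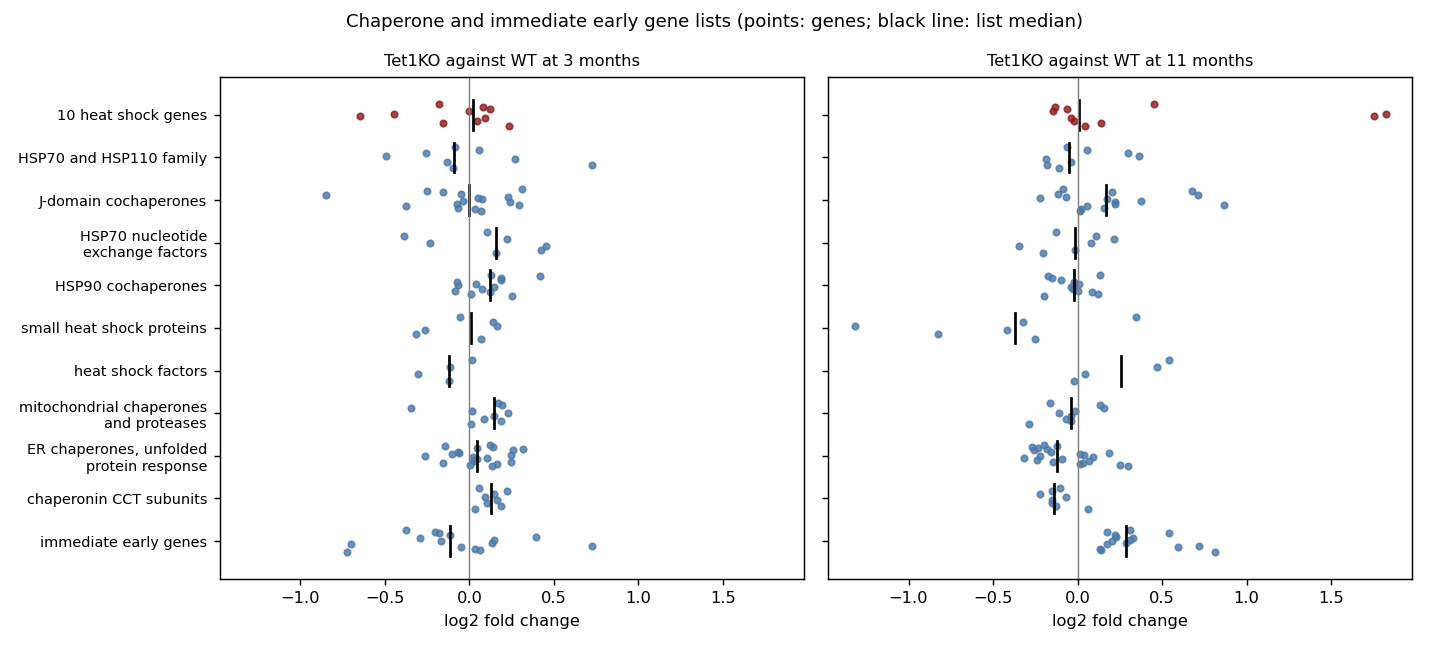
Fitted log2 fold changes (edgeR) of Tet1KO against WT at 3 months (left) and 11 months (right), 1 point per tested gene, for the 10 heat shock genes and 10 lists; black lines are medians. At 11 months Hspa1a and Hspa1b stand at 1.75 and 1.82, and the immediate early genes, all above 0, have a median of 0.28.

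Some list genes, chosen after their values were seen, were high in single libraries. Hspa2, the HSP70 of spermatocytes, had 132 CPM in WT replicate 1 and 111 CPM in Tet1KO replicate 2 of 3 months and 26.1 to 41.6 CPM in the other 10 libraries. Hspb9, a testis small heat shock protein gene, had 123 and 122 CPM in the same libraries and at most 28.8 CPM elsewhere. Dnajb3 had 121 and 111 CPM there and at most 53.8 CPM elsewhere. These are the libraries that stood apart, and their spermatocyte and spermatid markers summed to 4272 and 2878 CPM, the highest of all. Hspa1l, a testis HSP70 gene beside Hspa1a, was highest in the 4 libraries whose sums of these markers were highest (2478 to 4272 CPM), at 14.7, 9.33, 11.4 and 14.2 CPM. Its level in Tet1KO replicates 2 and 3 of 11 months was 7.53 and 2.51 CPM, unlike that of the inducible copies.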

How the data were processed

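RNA was measured in 12 libraries, 3 in each of 4 groups. The deposited table holds raw fragment counts per gene, which per the file headers the authors made with featureCounts 1.6.2 on GENCODE vM17, for read pairs, without strand, with a mapping quality minimum of 30, with multi-mapping reads kept and with a fragment counted for each gene it overlaps. Reads that align equally well to Hspa1a and Hspa1b may fail that quality minimum. Per the submitters' processing notes, HISAT2, SAMtools and mm10 were used. The sources used here give no version for them.

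Counts were fitted with edgeR 4.0.16 in R 4.3.3 (filterByExpr, TMM scaling, 1 mean per group over all 12 libraries, robust quasi-likelihood F test, two-sided, Benjamini-Hochberg over 19815 genes, threshold 0.05). SEs were derived from the F statistic, and the code was tested on simulated data. Symbols were matched for 53620 of 53715 genes. The members and lists were chosen with earlier results of these data known. Named genes are the 10 members, genes overlapping their exons, the 3 genes of each list highest in RPKM and the 5 most like the summed HSP70 copies. Hspa1l and other list genes named as examples were chosen after their values were seen. Within groups, libraries differed beyond counting noise (chi-square per degree of freedom 10.9 or more), so each counted as 1 replicate.

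Same-numbered WT and Tet1KO libraries deviated together at 11 months (r = 0.37, 0.17 and 0.33) and not at 3 months (-0.59, -0.18 and 0.30). The numbers were therefore taken to pair the libraries at 11 months only, a hint from the data since the labels give no pairing. Differently numbered libraries could also deviate together (r = 0.71 for WT replicate 1 with Tet1KO replicate 2 of 3 months), so such an r does not show pairing. Alternatives were DESeq2 1.42.0, limma-voom 3.58.1 with quality weights, other scalings and filters, only the compared groups, the replicate block, summed copies, single libraries or both that stood apart left out, and only libraries with 1 code prefix (AK).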

Additional observations from a re-analysis of the deposited data

How the results depend on the processing

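No comparison had a gene past the threshold under any edgeR or limma-voom alternative, whereas DESeq2 called 2 genes at 3 months, 3 at 11 months and 7 for age in Tet1KO. The cause was not tested. With the replicate block the count stayed at 0 genes in every comparison, also in a fit of the 11-month libraries alone added after seeing the data, and it changed no call. Of the members' log2 fold changes under the alternatives, 1172 kept their direction and call or moved by less than their SE, 9 moved by more, and 14 changed sign in the tested comparison. In the other comparisons the move was set against the SE only, and values near 0 there also changed sign, such as that of Dnajb1 for age in Tet1KO (-0.33 to 0.082 over its alternatives).

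All 14 sign changes at 3 months are of Hspa5, whose value of -0.0022 is close to 0. It was 0.0011 with DESeq2 size factors, 0.0036 with upper quartile scaling, 0.075 with library totals, 0.014 with no filter, 0.00094 with at least 10 counts in every library, 0.0011 in DESeq2 and 0.18 in limma-voom, and ran from -0.20 to 0.28 with a library left out. The 9 include Hspa1b without Tet1KO replicate 3 (1.17 at 11 months, 1.49 for age in Tet1KO, 1.59 for the interaction) and Hspa1a for age in WT without WT replicate 1 of 3 months (0.32, from -0.20). The interaction has no fit on the compared groups alone, since it uses all groups. Hspa1b rested on 26 to 275 counts a library, which limits its precision.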
